A study of Mus musculus with 6 samples.

Results

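The genes of DNA replication and S phase examined here are 39 of the 23473 RefSeq genes measured in TECs, the endothelial cells that line the vessels of a tumor. They were taken by gene symbol from a list of replication factors. That list was chosen with earlier results of these data known. All 39 were present and detected. None of them passed the test between NICeCA and Ctrl TECs (limma, adjusted p under 0.05), whereas 7.68% of all genes tested were called lower and 5.88% higher. For 31 of the 39 the difference was negative, and for 8, Pcna among them, it was positive. The median of the members was -0.23 on the scale of log2(RPKM + 1). Over all genes tested 55.3% were negative, with a median of -0.05. RPKM is the number of reads on a gene scaled by the length of its model and by the total of its library.

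Cells prepare for S phase by loading a ring of Mcm proteins onto replication origins, a step called licensing that needs the origin recognition complex, Cdc6 and Cdt1. Cdc45 and the GINS complex then join the ring and turn it into a moving helicase, behind which primase and DNA polymerases copy both strands while held on by the Pcna clamp. Many of these genes are transcribed under the control of E2F factors as cells leave G1, so their mRNA marks cells in cycle, which in a tumor include endothelial cells of growing vessels.

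TECs were isolated from Lewis lung carcinoma (LLC) tumors, grown under the skin from a mouse lung cancer line, to ask how Notch signaling changes the endothelial transcriptome. Bulk RNA-seq was made from 3 Ctrl mice, labelled wild type, and 3 NICeCA mice, each library from its own mouse. The methods describe the mice as 3 pairs, but which libraries form a pair is not stated in the sources used here. NICeCA mice carry Cdh5-CreERT and a ROSA-Stop-floxed-NIC allele, so that after tamoxifen the intracellular domain of Notch1 is made in cells in which the Cdh5 promoter is active. All mice were C57BL/6 and 8 weeks old per the labels, and male per the methods. Whether Ctrl mice carried Cre or received tamoxifen is not stated in the sources used here. The methods give 1 collection day after inoculation, whereas the labels speak of differing days, and the day of each library is not given. Cells were captured on CD31 beads to a purity of over 90% per the labels.

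The libraries held between 27793301 and 30769916 reads on RefSeq genes, and members were covered by 60 (Orc1) to 5585 (Pcna) reads per library. Over all 12320 genes with a mean of at least 1 RPKM, limma called 946 (7.68%) lower and 725 (5.88%) higher in NICeCA TECs at an adjusted p under 0.05. Notch1, whose intracellular domain the transgene also encodes, spanned 8.19 to 14.3 RPKM in Ctrl and 12.3 to 13.6 RPKM in NICeCA TECs, and the Notch target Hey1 spanned 2.69 to 5.55 and 6.05 to 10.6 RPKM (limma adjusted p = 0.0412). All 12 endothelial markers were detected in every library. Their summed level, 221 to 636 RPKM, was below that of 9 macrophage markers, 4374 to 9359 RPKM, in each of the 6 libraries. Lyz2 alone was at 2611 to 5555 RPKM, so these sums weigh abundant transcripts and do not give shares of cells. Carcinoma and epithelial markers summed to 6.63 to 13.0 RPKM. Only 2 of these 8 markers, Krt18 and Cdh1, had a mean of at least 1 RPKM. Whether LLC cells express these genes was not tested, so the sum does not measure tumor cells. In bulk samples, fewer cells of a type and less RNA per cell cannot be told apart.

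Ctrl 2 stood apart in these genes and held the highest level of 34 of the 39 members (87.2%), against 31.9% of all genes tested. After each gene was centred on its mean over the 6 libraries, the members' median was -0.16, 0.39 and 0.12 in Ctrl 1, 2 and 3. It was -0.08, -0.21 and -0.0044 in NICeCA 1, 2 and 3. By this median Ctrl 1 lay within the range of the NICeCA libraries. It was at or under the highest NICeCA library for 31 of 39 members and under the lowest for 15. Without Ctrl 2 the members' median difference was -0.11 with 27 negative, and without Ctrl 1 it was -0.38 with 35 negative, with 0 calls either way. The exceptions to the lead of Ctrl 2 were Rpa1, Rfc4 and Pola1, highest in Ctrl 3, and Pcna and Ccne2, highest in NICeCA 2.

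**Figure D1:**
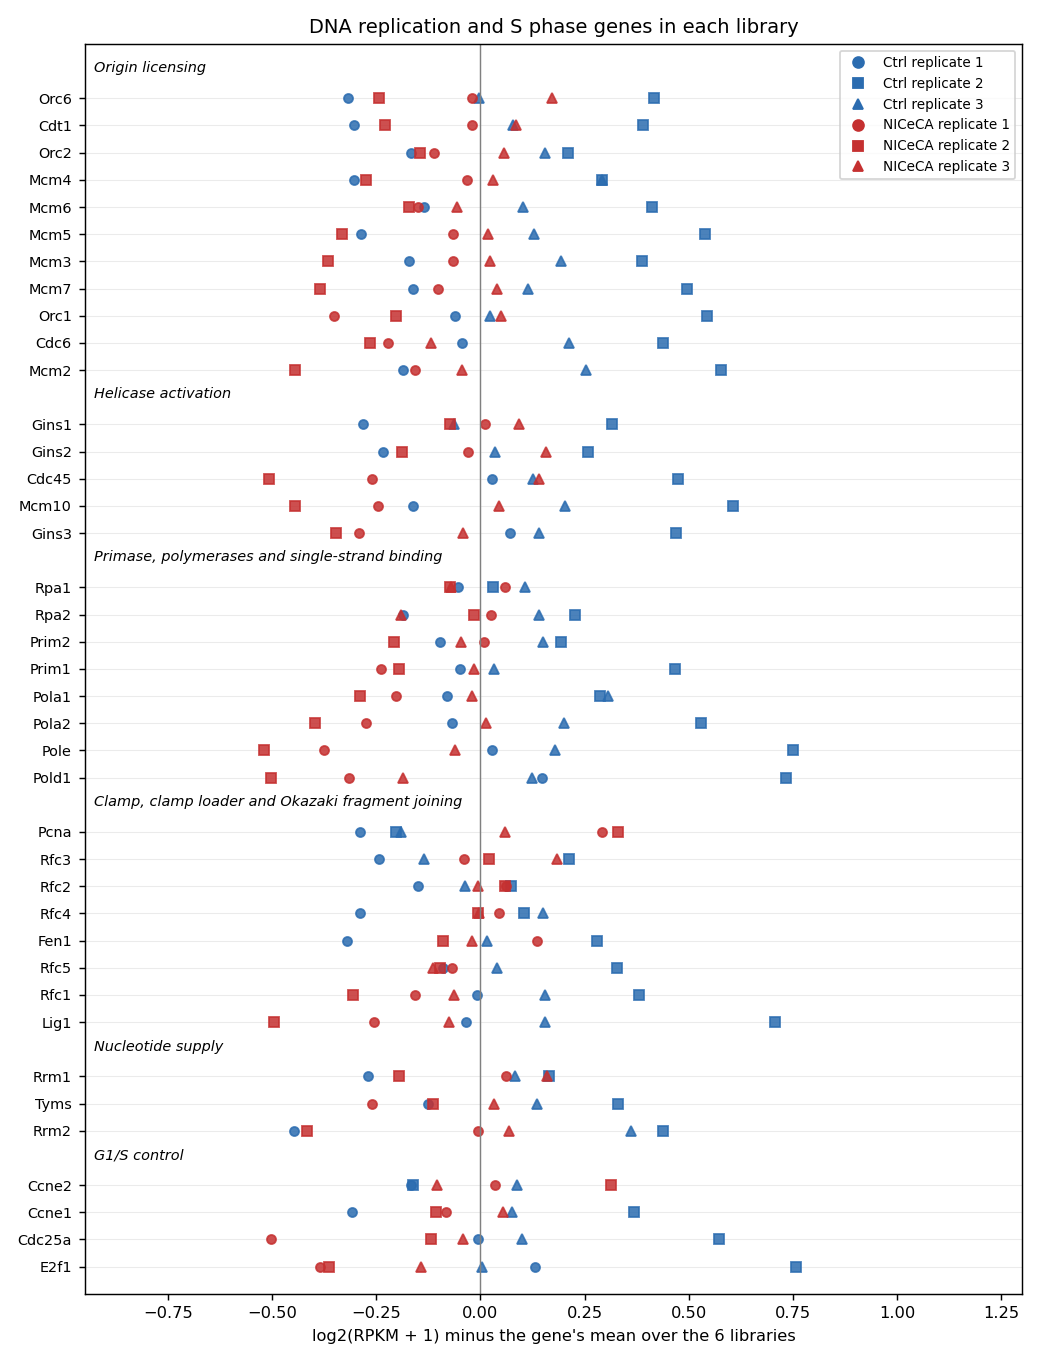
Level of each gene in each library, as log2(RPKM + 1) minus the gene's mean over the 6 libraries, with Ctrl in blue and NICeCA in red and a symbol for each replicate. The blue square of Ctrl 2 is the rightmost point for 34 of 39 genes, while Ctrl 1 lies within the range of the NICeCA points for 16 genes, below it for 15 and above it for 8.

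At an adjusted p under 0.05, limma called 0 of the 39 members lower, against 7.68% of all genes tested, and 0 higher, against 5.88%. At an unadjusted p under 0.05 there were 9 members (23.1%), against 4377 genes (35.5%) of all tested. Limma voom, a related test run on the read numbers behind the RPKM values, called 1 member lower, Pold1, and 0 higher, against 10.9% and 5.54% of all genes. A filter of at least 5 RPKM likewise called Pold1 lower (7.03% of all genes), and scaling by a trimmed mean called Pcna higher (8.13% of all genes). In 8 members (20.5%) every NICeCA library lay below every Ctrl library, which was so for 24.4% of all genes, and in 1 member (2.56%) every NICeCA library lay above, which was so for 16.5%. The share of members with separated groups was thus close to that of all genes for lower levels. The median difference of all genes was -0.05, and 55.3% of them were negative. With the libraries scaled by a trimmed mean or by quantiles, the members' median was -0.18 or -0.17, with 29 of 39 negative in each.

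**Figure D2:**
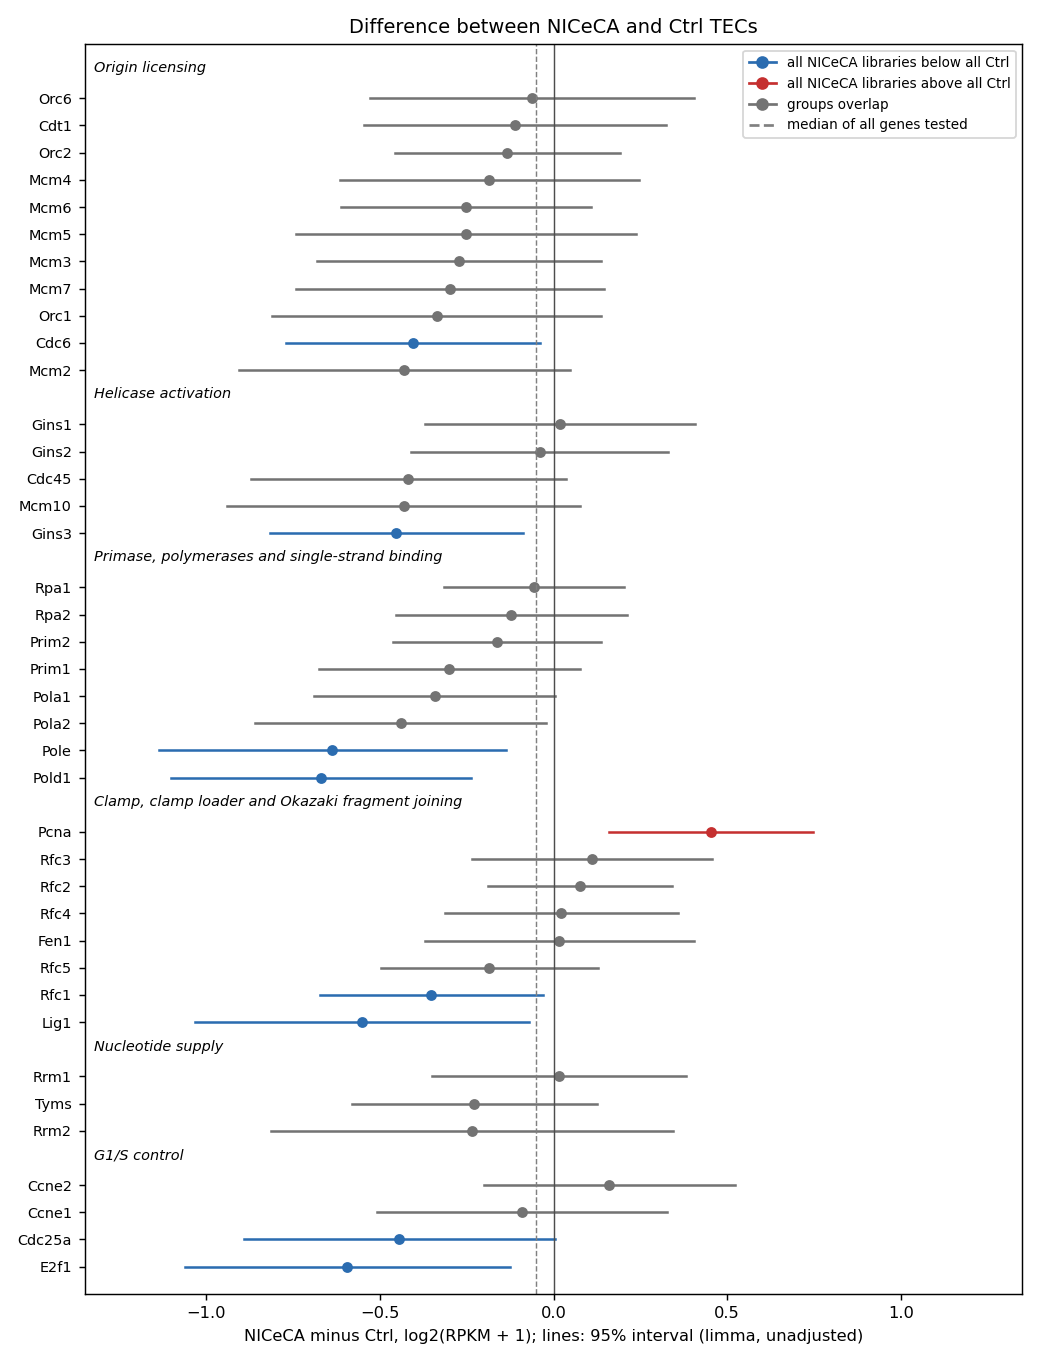
Difference between NICeCA and Ctrl TECs for each of the 39 genes, grouped by role, on the log2(RPKM + 1) scale, with lines for the unadjusted 95% interval from limma and a dashed line at the median of all genes tested, -0.05. Points lie between -0.67 for Pold1 and 0.45 for Pcna, and 31 of 39 are left of 0.

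The 6 libraries also differed in their markers of cell types. Ctrl 2, in which most replication genes peaked, had the lowest endothelial sum, 221 RPKM, and the highest share of ribosomal precursor Rn45s, 6.40% of reads on RefSeq genes. Endothelial markers summed to 567, 221 and 288 RPKM in Ctrl and to 486, 636 and 586 RPKM in NICeCA TECs, with all 12 differences positive and 1 called. Neutrophil markers summed to 389, 383 and 678 RPKM in Ctrl and to 1338, 1747 and 2635 RPKM in NICeCA TECs, with 9 of 9 positive and 7 called higher. Macrophage markers overlapped between the groups (6445 to 9359 and 4374 to 8141 RPKM), with 4 of 9 positive and 2 called higher (Cd68 and Itgam). Of the 9 fibroblast and pericyte markers tested 4 had positive differences, with 1 called higher (Rgs5) and 2 lower (Pdgfra, -0.89, and Lum, -1.01). Of the carcinoma and epithelial markers 1 was called lower (Krt18, -0.98). The 3 that fell were highest in Ctrl 2, as were 31.9% of all genes tested, whereas Rgs5 was lowest there. Of the lymphocyte markers 0 of 8 were called. With the endothelial marker mean as a covariate in the fit, the members' median was 0.03 with 16 of 39 negative, and with the neutrophil mean it was -0.54 with 36 negative. Neither fit called any gene, member or other, and which cells carried the replication mRNA was not tested.

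**Figure D3:**
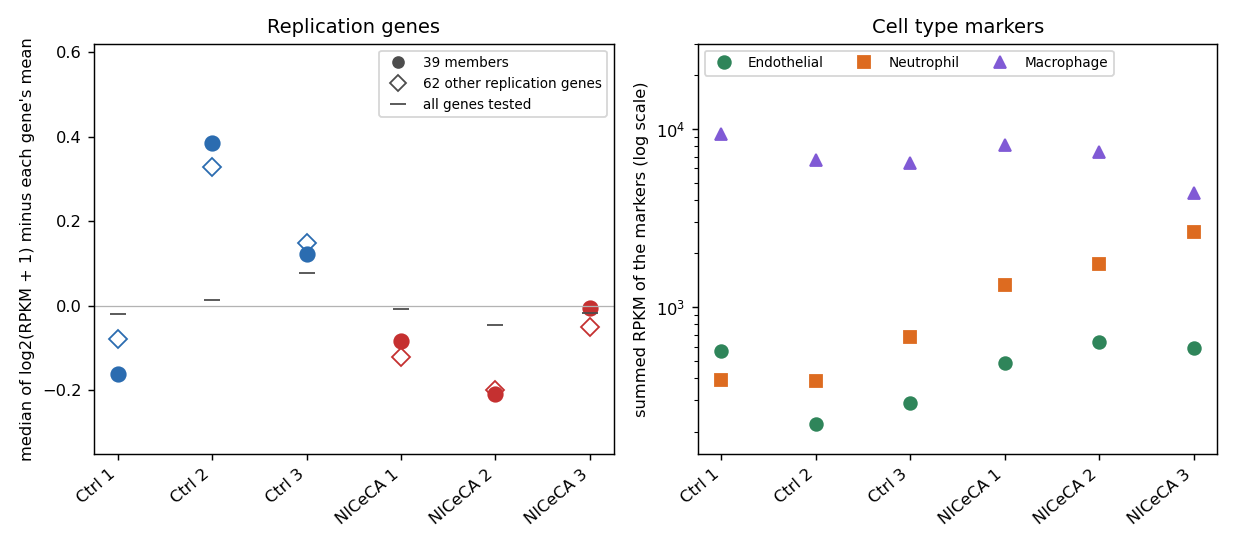
Left, the median centred log2(RPKM + 1) of the 39 genes (filled circles), of 62 other replication genes (diamonds) and of all genes tested (dashes) in each library. Right, the summed RPKM of endothelial, neutrophil and macrophage markers on a log axis. Replication genes stand highest in Ctrl 2 (0.39), where the endothelial sum is lowest (221 RPKM).

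Because E2F factors drive many replication genes, promoters were searched for 4 E2F-kind motifs. RefSeq promoter windows from 250 bases before to 50 bases after the start (GRCm38.p6) were matched for 32 of the 39 members by symbol. The motifs were TTTCGCGC, TTTGGCGC, TTTCCCGC and TTTGCCGC, searched on both strands, with overlapping matches counted. At least 1 was present in 12 of 32 members (37.5%) and in 15 of 50 other replication genes (30.0%), against 626 of 27025 windows of all genes (2.32%) and 372 of 8944 windows of tested genes (4.16%). The median log2 difference was -0.32 in the 12 members with a motif and -0.21 in the 20 without. Members with a motif spanned -0.67 to 0.11, and those without spanned -0.59 (E2f1) to 0.45 (Pcna). Pole, at -0.64, had no matched window, and whether the 2 lists differ was not tested. The stretches shown are those of the 3 most negative (Pold1, Gins3, Cdc25a) and the 3 least negative or positive members with a motif (Mcm6, Cdt1, Rfc3), on the log2(RPKM + 1) scale. Each is given from 5′ to 3′ on the strand of its gene, with the motif in capitals.
Pold1, chr7:44548766-44548885, minus strand: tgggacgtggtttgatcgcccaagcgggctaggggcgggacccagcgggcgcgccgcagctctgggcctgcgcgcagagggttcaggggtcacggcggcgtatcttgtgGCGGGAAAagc
Gins3, chr8:95633478-95633597, plus strand: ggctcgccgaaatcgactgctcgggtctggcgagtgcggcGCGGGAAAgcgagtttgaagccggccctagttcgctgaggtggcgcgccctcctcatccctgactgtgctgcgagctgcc
Cdc25a, chr9:109875472-109875591, plus strand: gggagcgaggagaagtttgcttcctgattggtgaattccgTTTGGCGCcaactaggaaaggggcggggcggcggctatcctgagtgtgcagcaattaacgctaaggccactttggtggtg
Mcm6, chr1:128359736-128359855, minus strand: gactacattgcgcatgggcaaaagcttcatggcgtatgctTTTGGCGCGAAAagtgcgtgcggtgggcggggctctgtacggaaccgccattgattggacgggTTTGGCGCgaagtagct
Cdt1, chr8:122567945-122568064, plus strand: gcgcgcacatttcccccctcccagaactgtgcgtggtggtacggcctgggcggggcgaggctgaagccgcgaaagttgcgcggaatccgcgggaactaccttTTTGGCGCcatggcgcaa
Rfc3, chr5:151651159-151651278, minus strand: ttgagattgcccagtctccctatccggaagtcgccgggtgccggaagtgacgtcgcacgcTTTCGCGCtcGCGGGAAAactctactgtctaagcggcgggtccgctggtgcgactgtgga
The match in Pold1 and Gins3 is GCGGGAAA, the reverse complement of TTTCCCGC. Cdc25a, Cdt1 and Mcm6 hold TTTGGCGC, and in Mcm6 the first copy overlaps a TTTCGCGC on the other strand. Rfc3 holds TTTCGCGC and the reverse complement of TTTCCCGC side by side. The same words thus stood in the promoters of Pold1, whose difference was -0.67, and of Rfc3, whose difference was 0.11. A match of letters does not show that a factor was bound.

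Among the 11 licensing genes, all 11 differences were negative (10 after quantile normalization, where Orc6 turned, and 9 without Ctrl 2), with a median of -0.25 and 0 calls. Mcm6 (chromosome 1, 128331591 to 128359656, GRCm38, minus strand), a subunit of the helicase ring and the licensing gene with the highest level, had 19.9, 29.6 and 23.7 RPKM in Ctrl and 19.7, 19.4 and 21.1 RPKM in NICeCA TECs. The groups overlapped, since Ctrl 1 lay below NICeCA 3. Its means were 24.4 ± 4.87 and 20.1 ± 0.900 RPKM (SD, n = 3 each), a log2 difference of -0.25 (standard error 0.16, 95% interval -0.61 to 0.11, limma adjusted p = 0.279). Mcm2, another ring subunit, had 11.0, 19.4 and 15.3 RPKM in Ctrl and 11.3, 9.07 and 12.3 RPKM in NICeCA TECs. Here too Ctrl 1 fell among the NICeCA libraries. On the log2(RPKM + 1) scale the difference was the largest of the licensing genes at -0.43 (standard error 0.21, interval -0.91 to 0.05, limma adjusted p = 0.175). By ratio of means Orc1 (0.611) and Cdc6 (0.636), both at lower levels, fell further than Mcm2 (0.713). Without Ctrl 2, Mcm6 was at -0.11 and Mcm2 at -0.25.

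The 6 ring subunits kept a fixed order at both ends. Mcm6 was the highest and Mcm4 the lowest of the 6 in every library, with a ratio of RPKM between 1.87 (Ctrl 3) and 2.48 (Ctrl 1). Mcm4 had 8.04, 12.7 and 12.7 RPKM in Ctrl and 9.91, 8.23 and 10.4 RPKM in NICeCA TECs. The remaining subunits Mcm3, Mcm5 and Mcm7 had 14.0 to 21.2, 10.4 to 19.2 and 15.3 to 24.7 RPKM in Ctrl against 12.2 to 16.2, 10.0 to 13.1 and 13.0 to 17.8 RPKM in NICeCA TECs. In all 6 the groups overlapped. Their log2 differences, -0.43 to -0.19, were negative in each refit except that with the endothelial covariate, where 1 of 6 was negative. Mcm7 hosts Mir106b, Mir25 and Mir93 in its gene body on the same strand.

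Of the loading factors, Cdc6, the ATPase that brings the ring to origins, was the only one with separated groups, at 1.69, 2.76 and 2.21 RPKM in Ctrl and 1.38, 1.31 and 1.55 RPKM in NICeCA TECs (log2 difference -0.40, limma adjusted p = 0.114). Its partner Cdt1 had 11.6, 19.4 and 15.4 RPKM in Ctrl and 14.3, 12.3 and 15.5 RPKM in NICeCA TECs, with overlapping groups and a difference of -0.11 (interval -0.54 to 0.32). The subunits of the origin recognition complex also overlapped. Orc1, the lowest member of all at a mean of 1.01 RPKM, had a difference of -0.34, while Orc2 (-0.13) and Orc6 (-0.06) were closer to 0.

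Among the 5 factors that activate the helicase, 4 differences were negative (3 under both other scalings, where Gins2 turned), with a median of -0.42 and 0 calls. Gins3 (chromosome 8, 95633559 to 95645059, plus strand), whose promoter is printed above, had 2.75, 3.95 and 2.93 RPKM in Ctrl and 1.92, 1.81 and 2.47 RPKM in NICeCA TECs. All NICeCA values lay below all Ctrl values, with means of 3.21 ± 0.644 and 2.07 ± 0.355 RPKM (SD, n = 3 each). The log2 difference was -0.45 (standard error 0.16, interval -0.82 to -0.09, limma adjusted p = 0.0866). It was -0.29 with quantile normalization or the endothelial covariate and -0.68 with the neutrophil covariate. Gins2, a subunit of the same GINS complex and the most abundant of the 5 factors, had 6.29, 9.24 and 7.78 RPKM in Ctrl and 7.39, 6.52 and 8.56 RPKM in NICeCA TECs. Its groups overlapped, and the difference was -0.04 (standard error 0.16, interval -0.41 to 0.33, limma adjusted p = 0.879), of the other sign when Ctrl 2 was left out (0.08). Gins1 (0.02) was likewise near 0. Subunits of 1 complex thus spanned 0.02 to -0.45, a difference between subunits that was not tested. Cdc45, the helicase cofactor, and Mcm10, which helps to start the fork, had differences of -0.42 and -0.43 with groups that overlapped through NICeCA 3.

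Among the 8 genes of primase, polymerases and single-strand binding, all 8 differences were negative (7 after trimmed-mean scaling, where Rpa1 turned), with a median of -0.32 and 0 calls. Pold1 (chromosome 7, 44532744 to 44548815, minus strand), the catalytic subunit of the lagging-strand polymerase, had the most negative difference of all members on the log2(RPKM + 1) scale. By ratio of means Pole fell further (0.526 against 0.588), as it did in limma voom (-0.93 against -0.77). Pold1 is described first. It had 10.3, 16.0 and 10.1 RPKM in Ctrl and 7.20, 6.20 and 7.97 RPKM in NICeCA TECs, with no overlap. The means were 12.1 ± 3.32 and 7.13 ± 0.884 RPKM (SD, n = 3 each), a ratio of 0.588 and a log2 difference of -0.67 (standard error 0.19, interval -1.10 to -0.24). Its limma adjusted p, 0.0517, was just over the threshold, and it was 0.042 to 0.605 over the alternatives. It fell under the threshold with a filter of at least 5 RPKM (0.0484) and with limma voom (0.042), and without Ctrl 2 it was 0.0946 at a difference of -0.47. With the endothelial covariate the difference was -0.42, and with the neutrophil covariate it was -0.65.

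Pole, the catalytic subunit of the leading-strand polymerase, followed with 2.51, 4.80 and 2.91 RPKM in Ctrl and 1.66, 1.41 and 2.31 RPKM in NICeCA TECs. Its groups were separated, at a log2 difference of -0.64 (standard error 0.22, interval -1.14 to -0.14, limma adjusted p = 0.0805). The gene model of Pole, 7129 bases, was the longest of the members. With the trend of gene length removed its difference was -0.38 (limma adjusted p = 0.264). It was -0.42 without Ctrl 2, -0.32 with the endothelial covariate and -0.95 with the neutrophil covariate. The polymerase alpha and primase genes, which lay down primers, had overlapping groups, with differences of -0.44 for Pola2, -0.34 for Pola1, -0.30 for Prim1 and -0.16 for Prim2. Rpa1, which coats single-stranded DNA and was the most abundant of the 8, had 13.3, 14.2 and 15.0 RPKM in Ctrl and 14.5, 13.1 and 13.2 RPKM in NICeCA TECs. The groups overlapped within a spread of 0.846 and 0.776 RPKM (SD, n = 3), and its difference was -0.06 (standard error 0.11, interval -0.32 to 0.20, limma adjusted p = 0.749). The difference of its partner Rpa2 was -0.12.

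The clamp, its loader and the enzymes that finish Okazaki fragments were the group with the most mixed signs: 5 of 8 differences were positive (4 after quantile normalization, where Fen1 turned), with a median of 0.02 and 0 calls. Pcna (chromosome 2, 132249286 to 132253180, minus strand), the sliding clamp, was the most abundant member. It had 80.9, 86.0 and 86.7 RPKM in Ctrl and 121, 125 and 103 RPKM in NICeCA TECs. It was the 1 member with every NICeCA library above every Ctrl library, with means of 84.6 ± 3.16 and 116 ± 11.6 RPKM (SD, n = 3 each), a ratio of 1.38 and a log2 difference of 0.45 (standard error 0.13, interval 0.16 to 0.75). The limma adjusted p of 0.0523 fell under the threshold with trimmed-mean scaling of the libraries (difference 0.52, adjusted p = 0.0413) and was furthest from it with quantile normalization (difference 0.10, adjusted p = 0.564). The annotation also holds the pseudogenes Pcna-ps1 and Pcna-ps2, and how reads shared with them were counted is not stated.

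Rfc1, the large subunit of the loader that opens the clamp, had separated groups, at 7.39, 10.0 and 8.40 RPKM in Ctrl and 6.58, 5.83 and 7.08 RPKM in NICeCA TECs (log2 difference -0.35, limma adjusted p = 0.117). The small subunits Rfc2 to Rfc5 had overlapping groups and differences of 0.08, 0.11, 0.02 and -0.19. For Rfc2, at 18.1 to 21.3 RPKM in Ctrl and 20.1 to 21.1 RPKM in NICeCA TECs, the interval was -0.19 to 0.34. Fen1, the flap nuclease of Okazaki fragments, had a difference of 0.02 (interval -0.37 to 0.41). Lig1 (chromosome 7, 13277313 to 13311427, plus strand), the ligase that seals them, had 5.55, 9.95 and 6.47 RPKM in Ctrl and 4.63, 3.76 and 5.36 RPKM in NICeCA TECs. The Lig1 groups did not overlap, though Ctrl 1 and NICeCA 3 lay close, and the difference was -0.55 (standard error 0.21, interval -1.03 to -0.07, limma adjusted p = 0.105). Without Ctrl 2 the difference of Lig1 was -0.33. It was -0.20 with the endothelial covariate and -0.77 with the neutrophil covariate. Lig1 shares 1409 bases with 6330408A02Rik on the other strand, a gene at 1.34 to 2.98 RPKM.

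**Figure D4:**
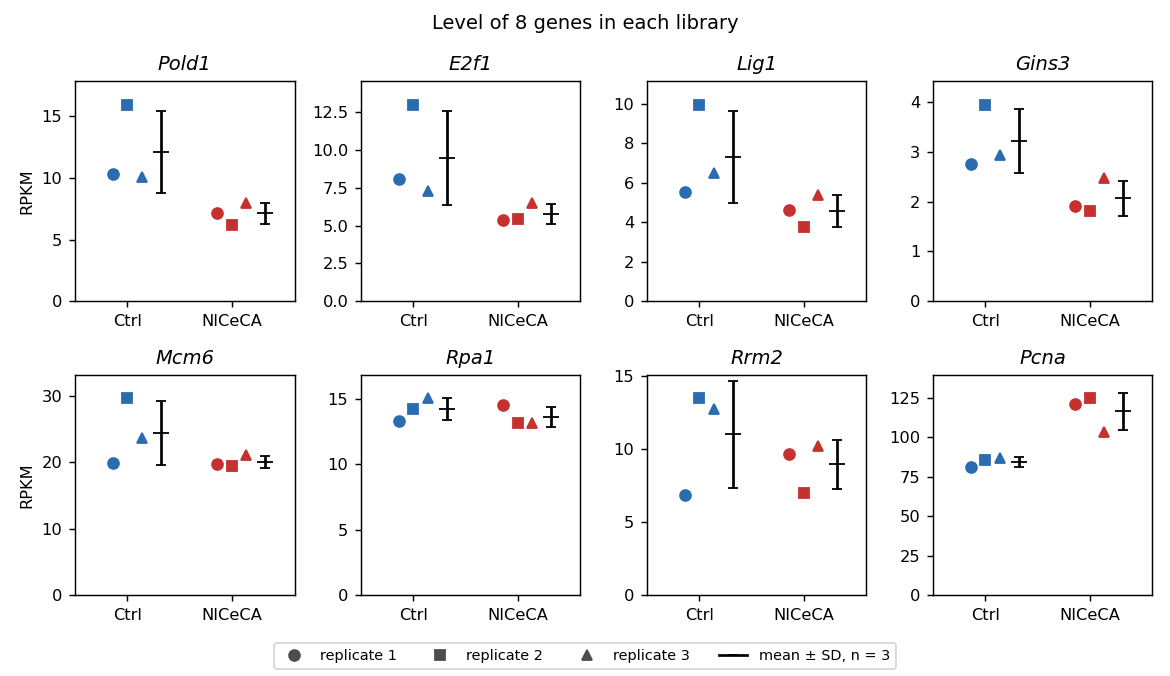
RPKM of 8 genes in each library, with Ctrl in blue, NICeCA in red, a symbol for each replicate and the mean ± SD of 3 libraries in black. Every axis starts at 0 and has its own scale. Pold1, E2f1, Lig1 and Gins3 have separated groups with lower NICeCA values, Mcm6, Rpa1 and Rrm2 overlap, and Pcna is at 103 to 125 RPKM in NICeCA against 80.9 to 86.7 RPKM in Ctrl TECs.

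Among the genes of nucleotide supply, 2 of 3 differences were negative, with a median of -0.23 and 0 calls. Rrm2, the S phase subunit of ribonucleotide reductase, had 6.84, 13.5 and 12.7 RPKM in Ctrl and 9.65, 7.02 and 10.2 RPKM in NICeCA TECs. Ctrl 1 was the lowest and Ctrl 2 the highest of the 6 libraries, and the spread within Ctrl was the widest of this group (11.0 ± 3.64 against 8.96 ± 1.71 RPKM, SD, n = 3 each). Its difference was -0.23 (standard error 0.25, interval -0.81 to 0.34, limma adjusted p = 0.529), or -0.07 without Ctrl 2 and -0.52 without Ctrl 1. Rrm1, the large subunit of the same enzyme, had 9.48, 13.2 and 12.4 RPKM in Ctrl and 12.2, 10.0 and 13.1 RPKM in NICeCA TECs, a difference of 0.02 (standard error 0.16, interval -0.35 to 0.39, limma adjusted p = 0.953) whose sign turned without Ctrl 1 (-0.12). Tyms, thymidylate synthase, overlapped too, at -0.23.

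Of the 4 genes of G1/S control, 3 differences were negative (2 after quantile normalization, where Ccne1 turned), with 0 calls. E2f1 (chromosome 2, 154559639 to 154569852, minus strand), the transcription factor that switches on S phase genes, had 8.07, 13.0 and 7.31 RPKM in Ctrl and 5.35, 5.43 and 6.51 RPKM in NICeCA TECs. All NICeCA values lay below all Ctrl values, with means of 9.46 ± 3.09 and 5.76 ± 0.645 RPKM (SD, n = 3 each), a ratio of 0.609 and a log2 difference of -0.59 (standard error 0.20, interval -1.06 to -0.13, limma adjusted p = 0.0815). Without Ctrl 2 the difference of E2f1 was -0.36. Cdc25a, the phosphatase that activates Cdk2, was also separated, at 4.31, 6.93 and 4.72 RPKM in Ctrl and 2.76, 3.91 and 4.18 RPKM in NICeCA TECs (difference -0.44, limma adjusted p = 0.143). The E cyclins, partners of Cdk2, had overlapping groups. Ccne1 had a difference of -0.09 and Ccne2 of 0.16 (interval -0.20 to 0.52), and Ccne2 shares 5622 bases with Ints8 on the other strand, which was at 3.34 to 5.22 RPKM.

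Beyond the members, 62 other genes of the pathway were all detected, with 46 negative differences and a median of -0.23, the same to 2 decimals as that of the members. Limma called 1 of them lower, against 7.68% of all genes, and 0 higher, against 5.88%, and 21 (33.9%) had an unadjusted p under 0.05, against 35.5% of all genes. Cad, the enzyme of the first steps of pyrimidine synthesis, was the gene that fell. It had 7.19, 12.0 and 10.2 RPKM in Ctrl and 4.25, 3.82 and 5.73 RPKM in NICeCA TECs, a log2 difference of -0.94 (standard error 0.20, interval -1.40 to -0.47, limma adjusted p = 0.0329). That call was lost without Ctrl 2 (0.0726), Ctrl 3 (0.0528), NICeCA 1 (0.122) or NICeCA 2 (0.135), as well as with no filter, with the length trend removed or with either covariate, and the adjusted p over all alternatives spanned 0.0275 to 0.455.

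On the log2(RPKM + 1) scale, the largest differences among the rest of these genes were in E2f8, Chaf1a and Uhrf1. By ratio of means Ticrr (0.452) and E2f7 (0.470), at mean levels of 1.47 and 1.56 RPKM, fell further than Chaf1a (0.503) and Uhrf1 (0.557). Limma voom called Ticrr and E2f7 lower (adjusted p = 0.0459 and 0.0380), against 10.9% of all genes. E2f8, an E2F that represses S phase genes, had 2.70, 6.88 and 4.08 RPKM in Ctrl and 1.53, 1.37 and 2.52 RPKM in NICeCA TECs (difference -0.94, standard error 0.28, limma adjusted p = 0.0609). Chaf1a, a subunit of the chaperone that places histones behind the fork, had 8.17, 16.6 and 9.67 RPKM in Ctrl and 4.90, 4.71 and 7.69 RPKM in NICeCA TECs (difference -0.85, standard error 0.26, limma adjusted p = 0.0663). Both had separated groups. Uhrf1, which guides maintenance methylation on new DNA, overlapped, at 12.9, 30.2 and 19.8 RPKM in Ctrl and 11.1, 8.52 and 15.5 RPKM in NICeCA TECs (difference -0.75, standard error 0.31, limma adjusted p = 0.124). Without Ctrl 2 the differences of E2f8, Chaf1a and Uhrf1 were -0.65, -0.57 and -0.46. With the endothelial covariate they were -0.44, -0.46 and -0.17, and with the neutrophil covariate -1.61, -1.40 and -1.56. Of the 12 E2F and pocket protein genes, 11 differences were negative, against 55.3% of all genes, with a median of -0.44. In 6 of the 12 every NICeCA library lay below every Ctrl library, against 24.4% of all genes. In the reported fit 0 were called, with a lowest limma adjusted p of 0.0523 (Tfdp2). Ctrl 2 held the highest level of 8 of the 12, against 31.9% of all genes. With the trend of gene length removed, Tfdp2 (7645 bases) went from -0.49 to -0.21 and E2f7 (5476 bases) from -0.64 to -0.45. Tfdp1 (1700 bases) went from -0.57 to -0.61.

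Gene length moved with the difference, in the members as in all genes. The 19 members with gene models under 2872 bases had a median difference of -0.11 with 13 negative, and the 20 longer ones had -0.34 with 18 negative. Over all genes tested the medians on the same sides were 0.05 (45.5% negative) and -0.16 (66.4% negative). Across the 39 members the rank correlation of length and difference was -0.55, and across all genes -0.29, as a description, since genes of the same libraries are not independent. With the length trend of each library removed, the members' median was -0.18 against 0.00 for all genes, with 32 negative and 0 calls. Pcna then had a difference of 0.35 (limma adjusted p = 0.082) and Pold1 of -0.58 (0.0965).

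**Figure D5:**
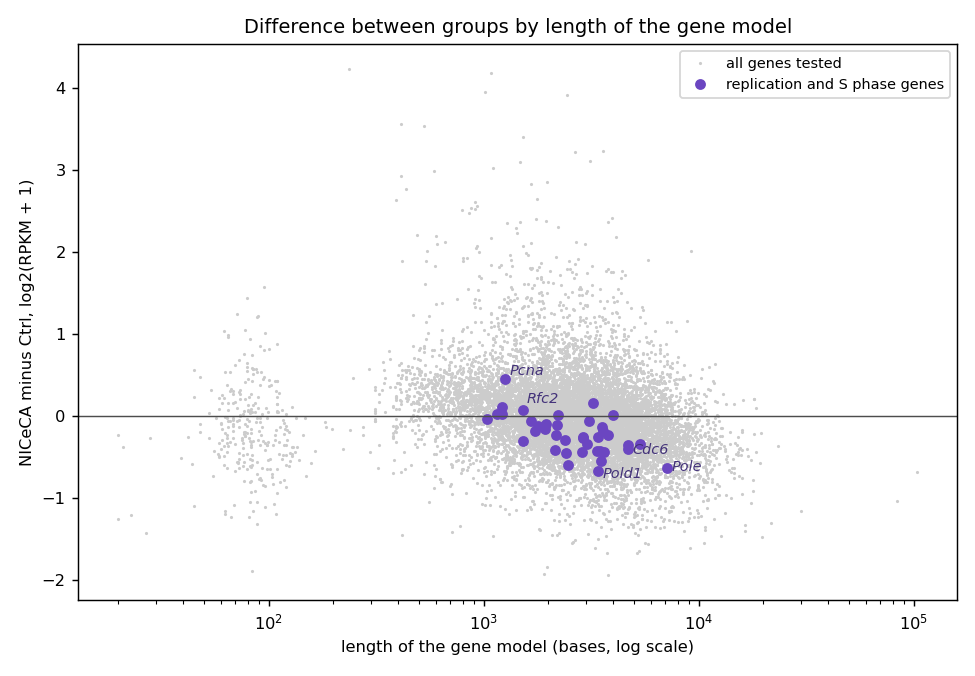
Log2 difference between NICeCA and Ctrl TECs against the length of the gene model in bases (log axis), for all 12320 genes tested in grey and the 39 replication and S phase genes in purple. Short models such as Pcna (0.45) and Rfc2 (0.08) lie higher than long ones such as Pole (-0.64).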

How the data were processed

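CD31-captured TECs from LLC tumors of 3 Ctrl and 3 NICeCA mice were profiled by bulk RNA-seq after depletion of ribosomal RNA. The authors deposited 1 RPKM value per gene and library, with no pooling of replicates. The submitters' processing notes name TopHat2 and mm9, but 99.3% of 21665 matched genes overlap their place in GRCm38, so positions are given as GRCm38. For the counting step, the tool, annotation and use of strand were not given in the sources used here. Libraries were tied to groups by their titles. RPKM times length gave whole reads (within 0.05) for 100% of values under 1000 reads, from which depth was taken. No library was a copy of another (chi-square per degree of freedom at least 51.2 between replicates), and p-values measure the spread between these mice.

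From the deposited values, log2(RPKM + 1) of the groups was compared by the moderated test of limma 3.58.1 (R 4.3.3; a trend on the mean level, two-sided, no replicate block) over the 12320 RefSeq genes with a mean of at least 1 RPKM, with Benjamini-Hochberg adjustment and a threshold of 0.05. Differences on this scale understate those of low genes. The 33353 FANTOM3 rows were not tested. Their reads are part of the library total behind each RPKM value. Whether those reads were also counted on RefSeq genes is not stated in the sources used here. The fit was tested on simulated data. The members, the other lists and the tests were chosen with earlier results of these data known. Values in every library went to each member called and, within each of 6 roles, to the member with the largest difference and that with the highest level, to the other replication genes called and to the 3 with the largest difference among the rest. Further members were named after their values were seen. The alternatives were 17 refits and a threshold of 0.1: the replicate block, leaving out each library, 2 normalizations, other filters, a pseudocount of 0.1, no trend, limma voom on the recovered reads (1337 genes lower, 683 higher), a length trend removed (lowess, span 0.3) and marker means as covariates. Python 3.11.15 and matplotlib 3.10.9 were used for the rest.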

Additional observations from a re-analysis of the deposited data

How the results depend on the processing

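As in the reported fit, 0 members were called lower and 0 higher with the replicate block, without any 1 library and in the other refits not named next. There were 1 called lower under a filter of 5 RPKM and 1 with limma voom (Pold1 in both), 1 called higher after scaling by a trimmed mean (Pcna), and 4 lower and 1 higher at an adjusted p under 0.1. The members' median log2 difference was -0.38 to -0.11 when 1 library was left out and -0.54 with the neutrophil covariate. Of the other replication genes, 0 to 4 were called lower when 1 library was left out, 0 with no filter, with the length trend removed or with either covariate, 2 without the trend, 5 with limma voom and 13 at an adjusted p under 0.1. Over all genes, the replicate block gave 209 lower and 327 higher, leaving out 1 library 1 to 832 lower and 26 to 913 higher, quantile normalization 325 and 446, no filter 9 and 42, either covariate 0 and 0, and an adjusted p under 0.1 gave 1992 and 1346. A mean of at least 5 RPKM gave 579 lower and the removal of the length trend 206. Of the fits with 1 library left out, that without NICeCA 2 gave the lowest counts, and the cause was not tested. Signs turned for differences near 0: Gins2 spanned -0.1662 to 0.0789 with 1 library left out and was 0.0166 after trimmed-mean scaling, 0.0574 after quantile normalization and 0.21 with the endothelial covariate. Rpa1 was 0.0037, 0.0178 and 0.0311 with trimmed-mean scaling, the length trend removed and the endothelial covariate. Rrm1 spanned -0.12 to 0.12 with 1 library left out and was -0.0143 with limma voom and -0.39 with the neutrophil covariate. With the endothelial covariate Mcm6 was 0.0057 and Rrm2 0.31. The methods speak of pairs of mice without tying them to libraries. The reported fit had no replicate block, since the methods name no paired test for the RNA-seq. Deviations of same-numbered libraries from their group mean correlated at 0.122, -0.343 and -0.178. Those of differently numbered libraries correlated at -0.319 to 0.438, highest for Ctrl 2 with NICeCA 3. Such deviations cancel out within a group, which ties the correlations to each other, so they cannot show whether the numbers are pairs. The replicate block joined same-numbered libraries only, and no other pairing was fitted, so an effect of the true pairs was not tested. With 3 mice a group, the 95% interval of a member reached 0.26 to 0.58 (median 0.39) to either side on the log2 scale without adjustment, and the 9 members whose difference exceeded it were not called after adjustment over all genes.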

Other observations

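The clamp was also set against the helicase ring, a comparison chosen after their values were seen and given without a test. The summed level of Mcm2 to Mcm7 was 78.7, 127 and 103 RPKM in Ctrl and 84.4, 71.9 and 90.9 RPKM in NICeCA TECs, with Ctrl 1 inside the NICeCA range. The ratio of Pcna to that sum was 1.03, 0.679 and 0.842 in Ctrl and 1.44, 1.74 and 1.14 in NICeCA TECs, so that every NICeCA library lay above every Ctrl library. Pcna has a shorter gene model (1260 bases) than any of the 6 subunits (2396 to 3589 bases), and the part of gene length in this ratio was not tested.

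Among the other replication genes, Pole4, a small accessory subunit of polymerase epsilon, and Slbp, which binds the stem-loop of histone mRNA, were the 2 with every NICeCA library above every Ctrl library, chosen after their values were seen. Pole4 had 15.3, 15.0 and 17.1 RPKM in Ctrl and 19.0, 20.2 and 18.7 RPKM in NICeCA TECs (log2 difference 0.27, limma adjusted p = 0.128). Slbp had 17.5, 19.4 and 22.7 RPKM in Ctrl and 25.7, 24.2 and 24.2 RPKM in NICeCA TECs (0.31, limma adjusted p = 0.133). Neither passed the test, and 16.5% of all genes tested were separated in that direction.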
